A study of Homo sapiens with 2 samples.

Results

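Germ cells use a set of genes that most other cells keep silent, often by methylating CpG-rich promoters, and the 41 germline and piRNA pathway genes described here were chosen by name as members of that set. The set holds RNA-binding factors of germ cells, components of the piRNA pathway, proteins of the meiotic chromosome axis, meiotic cohesins, enzymes of meiotic recombination and 4 testis genes of other function, out of 19974 protein-coding genes in the gene table. Chromatin accessibility at these genes was read from ATAC-seq, where a transposase cuts and tags DNA that is not packed away. Both libraries came from WIBR3, an established human embryonic stem cell line. The groups were primed cells, the state in which such lines are usually grown, and hTBLCs, a state that the series title ties to totipotency and to repression of the spliceosome. The labels give both libraries the cell type hESC, 50000 living cells each and no further treatment or time. As each group had 1 library, no test between the states was possible, and intervals cover counting error only.

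PIWI proteins bind short piRNAs that direct the silencing of transposons in the germline, Tudor-domain proteins gather them in germ granules, and the synaptonemal complex with its cohesin axis holds homologous chromosomes together in meiosis. In embryonic and somatic cells many of these genes are held silent by DNA methylation and by a Polycomb complex that contains E2F6, MGA and MAX. PGK2, TMPRSS12 and SPEM1 were already known from these libraries to have a gene end open in 1 of them, so their values are a description. A region is a stretch of overlapping or touching peaks of 1 library. A promoter region is a region within 1 kb of an annotated 5′ end, where each start listed for the gene and the outermost 5′ end of the gene were used. Such starts were at hand for 33 of the 41 genes, and for the other 8 (TEX14, TEX15, TEX19, PIWIL2, PIWIL4, HORMAD1, MEIOB and TMPRSS12) both gene ends are described. The pileup is the number of reads or fragments stacked at the summit of the strongest region, with an exact Poisson 95% interval. Coordinates are on hg38.

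Of the whole lists, 242009 regions in primed and 250859 in hTBLC had median pileups of 17 and 16, and the lowest pileup called was 6 and 7. The background behind the calls was 1.79 in primed and 1.96 in hTBLC, and their ratio of 1.09 was used as relative depth. Peak ranks are missing from the lists at 252 places in primed and 327 in hTBLC, where a region would have gone uncounted. The embryonic stem cell markers with a listed start, SOX2, NANOG, DPPA4, DNMT3B and L1TD1, had a promoter region in both libraries. So did 4 of 4 trophectoderm, 3 of 3 neural, 1 of 1 endoderm and 2 of 3 fibroblast markers, and 80.4% of all genes. This class therefore does not tell these cell types apart. Of 6 male germ cell markers with a listed start, 4 had no promoter region in either library, against 14.7% of all genes. They were DAZL, SYCP3, TNP1 and ACRV1. MAEL had a region in both libraries, against 80.4% of all genes, and DDX4 in primed alone, against 2.77%. DAZL, SYCP3, MAEL and DDX4 are also members of the gene set described here, so these markers are not a separate check on it.

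Promoters of 7 members are shown because they span the patterns below. Each is the 250 bases before the annotated start in the RefSeq table of GRCh38.p14, written 5′ to 3′ in the direction of transcription, with CpG dinucleotides in capitals. DAZL and SYCP3 are CpG-rich and had no region in either library. REC8 is CpG-rich and was strongly open in both. SPO11 is CpG-rich with a lower pileup in hTBLC, at summits 224 and 249 bp after the start and so outside the stretch shown. PGK2 and SPEM1 are CpG-poor and had a promoter region in 1 library alone. NANOS2 is CpG-poor, and its regions, which differed in pileup, lay inside the gene and outside the stretch shown.
DAZL, chr3:16605424-16605673, minus strand: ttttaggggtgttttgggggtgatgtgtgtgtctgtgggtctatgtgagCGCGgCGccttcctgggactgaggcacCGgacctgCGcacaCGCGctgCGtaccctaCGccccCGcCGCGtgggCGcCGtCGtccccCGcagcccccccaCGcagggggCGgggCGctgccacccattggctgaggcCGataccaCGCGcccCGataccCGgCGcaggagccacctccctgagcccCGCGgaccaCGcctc
SYCP3, chr12:101739463-101739712, minus strand: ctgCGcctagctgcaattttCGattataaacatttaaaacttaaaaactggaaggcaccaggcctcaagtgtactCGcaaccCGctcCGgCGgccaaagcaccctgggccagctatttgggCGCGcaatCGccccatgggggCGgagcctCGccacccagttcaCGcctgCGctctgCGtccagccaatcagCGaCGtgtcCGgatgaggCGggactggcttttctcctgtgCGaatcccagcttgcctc
REC8, chr14:24171830-24172079, plus strand: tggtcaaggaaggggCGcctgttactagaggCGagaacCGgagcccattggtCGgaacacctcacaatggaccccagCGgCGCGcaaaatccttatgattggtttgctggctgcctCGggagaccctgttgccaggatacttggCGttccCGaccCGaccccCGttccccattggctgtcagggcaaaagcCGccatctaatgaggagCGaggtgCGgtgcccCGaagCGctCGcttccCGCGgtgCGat
SPO11, chr20:57329553-57329802, plus strand: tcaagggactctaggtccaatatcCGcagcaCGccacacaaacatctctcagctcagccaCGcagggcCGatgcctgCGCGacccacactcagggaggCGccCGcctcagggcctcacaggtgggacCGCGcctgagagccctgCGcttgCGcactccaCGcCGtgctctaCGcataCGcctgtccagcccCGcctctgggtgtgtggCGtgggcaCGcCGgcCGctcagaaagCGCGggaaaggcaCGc
NANOS2, chr19:45914779-45915028, minus strand: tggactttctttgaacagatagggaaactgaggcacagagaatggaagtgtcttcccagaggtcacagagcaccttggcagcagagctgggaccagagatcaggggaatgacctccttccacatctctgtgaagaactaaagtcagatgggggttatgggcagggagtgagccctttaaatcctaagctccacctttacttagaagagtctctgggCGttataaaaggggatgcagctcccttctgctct
PGK2, chr6:49787286-49787535, minus strand: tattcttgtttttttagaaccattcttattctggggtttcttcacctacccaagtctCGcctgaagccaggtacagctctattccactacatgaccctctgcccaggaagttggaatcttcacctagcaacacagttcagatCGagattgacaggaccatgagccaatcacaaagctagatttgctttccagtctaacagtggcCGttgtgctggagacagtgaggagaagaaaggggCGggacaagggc
SPEM1, chr17:7420074-7420323, plus strand: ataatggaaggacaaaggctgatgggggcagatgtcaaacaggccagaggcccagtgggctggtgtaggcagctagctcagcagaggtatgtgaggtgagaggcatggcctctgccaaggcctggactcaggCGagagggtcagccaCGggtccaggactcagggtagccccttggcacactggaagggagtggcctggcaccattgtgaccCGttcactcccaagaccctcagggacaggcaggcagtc
These stretches held 28 CpGs at DAZL, 19 at SYCP3, 21 at REC8, 24 at SPO11, 1 at NANOS2, 4 at PGK2 and 3 at SPEM1.

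The first comparison asked in which state the promoters of the germline genes were open. Of the 33 members with a listed start, 16 had a promoter region in both libraries (48.5%), against 80.4% of 15812 protein-coding genes with a listed start. At least 1 library had one at 24 (72.7%), against 85.3%. A region was present in primed alone at 5 members (15.2%, exact binomial 95% interval 5.11 to 31.9), against 2.77% of all genes, and in hTBLC alone at 3 members (9.09%, 1.92 to 24.3), against 2.12%. The remaining 9 members (27.3%) had no promoter region in either library, against 14.7% of all genes. Those 5 and 3 include PGK2 and SPEM1, already known to be open in 1 library, so part of both shares was fixed beforehand. Without these genes, 4 members were primed-alone and 2 hTBLC-alone, beside the same 2.77% and 2.12% of all genes. Once the threshold was raised to a −log10 q of 10, 4 members were open in primed alone, TDRD7, SPO11, STRA8 and PGK2, against 3.59% of all genes. Those open in hTBLC alone were 2, RNF17 and SPEM1, against 2.66% of all genes. Then DDX4, SYCE1, TDRD5, TDRD12, TEX101 and GTSF1 had none.

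**Figure D1:**
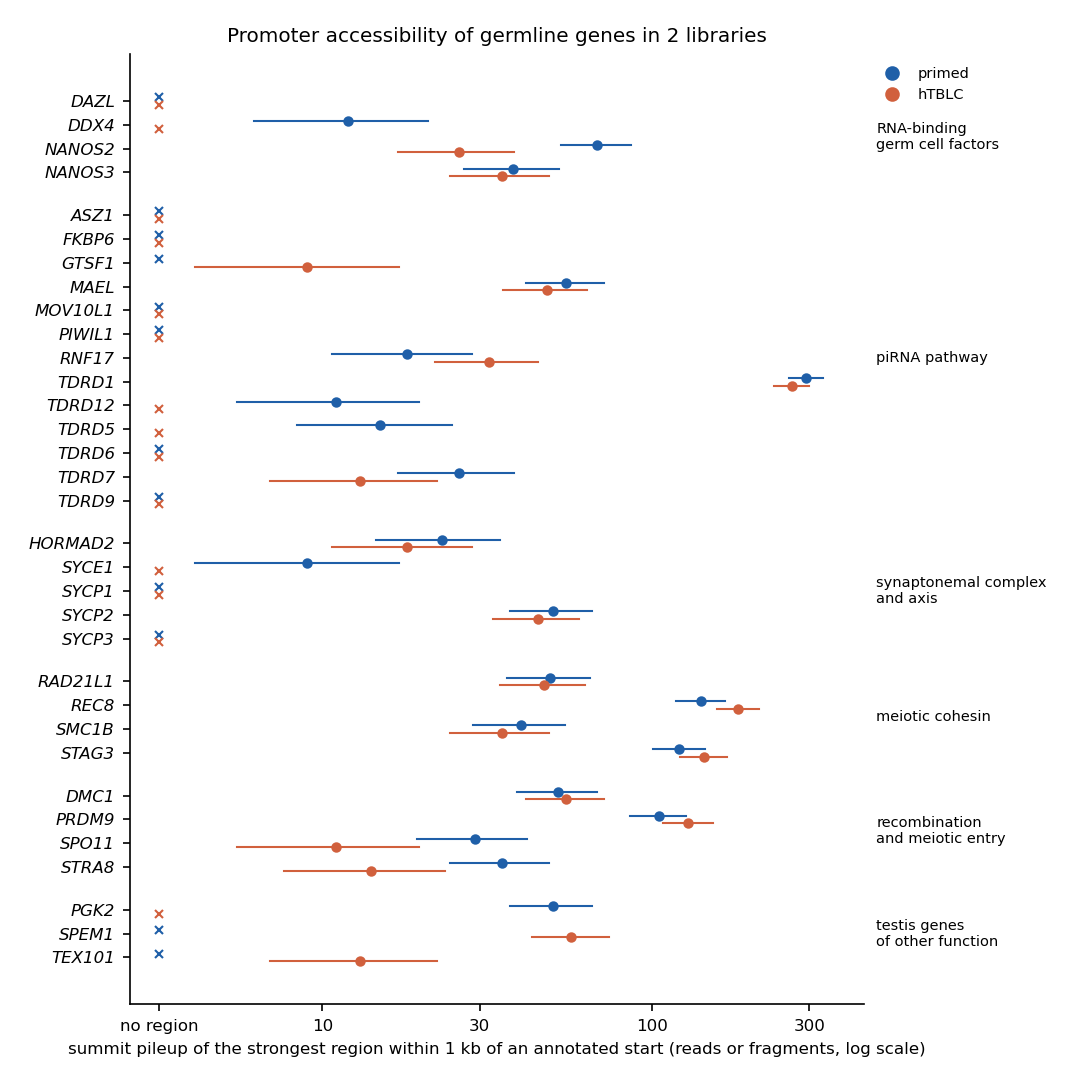
Summit pileup of the strongest region within 1 kb of an annotated start (log scale) for the 33 members with a listed start, in primed (blue) and hTBLC (orange), with exact Poisson 95% intervals. Crosses mark libraries without a region, and the 4 meiotic cohesin genes are open in both libraries while PGK2 and SPEM1 are each open in 1.

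Members with no promoter region were the RNA-binding translational regulator DAZL, the synaptonemal complex proteins SYCP1 and SYCP3, the Tudor-domain proteins TDRD6 and TDRD9, the PIWI protein PIWIL1, the piRNA biogenesis helicase MOV10L1, the germ granule protein ASZ1 and the chaperone FKBP6. At DAZL the nearest region began 1088 bp from the start in primed and 1103 bp in hTBLC, just outside the 1 kb limit, with pileups of 19 (11.4–29.7) and 12 (6.20–21.0). Just inside the limit were the weak hTBLC regions of GTSF1 and TEX101, both with a summit 905 bp before the start. FKBP6 had an hTBLC region 1582 bp from the start with a pileup of 10 and its nearest primed region 3285 bp away, with a pileup of 64. That primed region overlapped an hTBLC region with a pileup of 49, and both lay within 1 kb of a start of TRIM50. PIWIL1 had an hTBLC region 2047 bp from the start with a pileup of 21 and a primed region 2552 bp away with a pileup of 11. TDRD6 had a shared region 2714 bp away in primed and 2497 bp in hTBLC, with pileups of 18 and 39. For the other 5 genes the nearest region of either library was at least 4308 bp from every annotated start.

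Many members had CpG-rich promoters that were closed. The CpG observed over expected ratio of the 300 bases around the start was taken for the most CpG-rich listed start of each gene, and 27 of the 33 members had a ratio of at least 0.6. At that start, 12 of these 27 CpG-rich promoters (44.4%, 25.5 to 64.7) had no region in either library, against 2.99% of 11113 CpG-rich promoters of all genes. They belonged to ASZ1, DAZL, FKBP6, MOV10L1, PIWIL1, RNF17, SYCE1, SYCP1, SYCP3, TDRD6, TDRD9 and TEX101. A region in both libraries was found at 12 of the 27 (44.4%), against 95.01%, in primed alone at 2 (TDRD5 and TDRD12), against 1.45%, and in hTBLC alone at 1 (NANOS3), against 0.549%. RNF17, SYCE1 and TEX101 had a region at another annotated start, and with any start of the gene counted the closed share was 9 of 27 (33.3%), against 2.51% of all genes. At a CpG ratio of at least 0.75 the closed share was 9 of 23, against 2.22%. The median CpG ratio was 0.862 at the 13 member promoters without a region and 0.887 at the 14 with a region in both. Over all genes these medians lay farther apart, at 0.235 and 0.853. DNA methylation was not measured in these files.

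**Figure D2:**
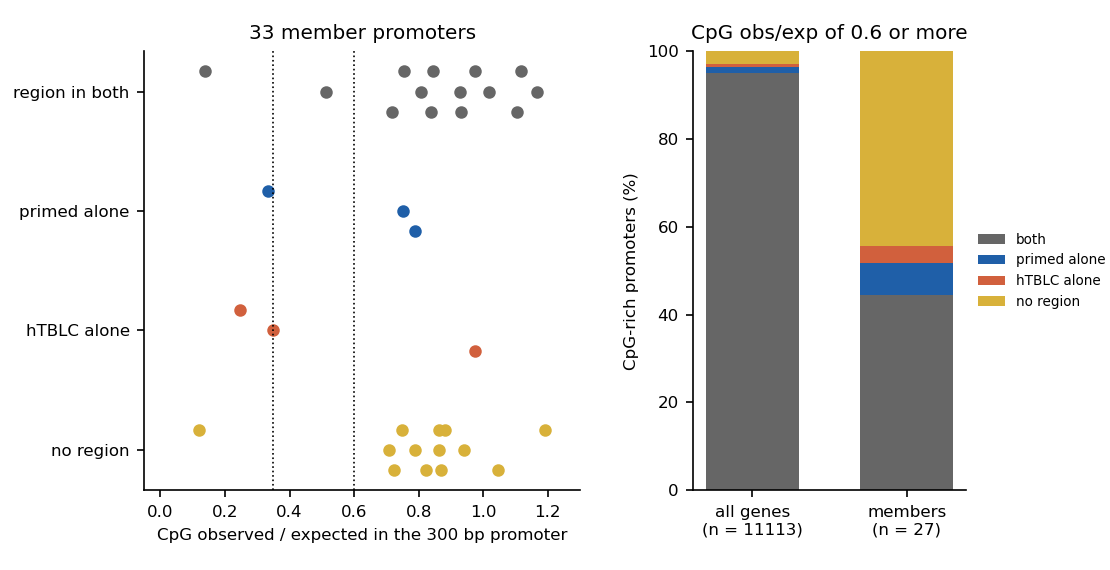
Left, CpG observed over expected ratio of the most CpG-rich listed promoter of each of 33 members, by library class at that start, with dotted lines at 0.35 and 0.6. Right, library classes of CpG-rich promoters as percentages of 11113 genes and 27 members, with 2.99% and 44.4% without a region.

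Motifs read by subunits of the Polycomb complex named above were counted in the same 300 bases on both strands. TCCCGC, the core of an E2F site, was present in 18 of the 33 member promoters (54.5%) and 37.1% of all promoters, and the longer TTCCCGC, which contains it, in 10 (30.3%) and 9.08%. Among CpG-rich promoters the shares lay closer for TCCCGC, at 59.3% of members and 48.0% of all genes, and for TTCCCGC they were 33.3% and 11.7%. The motif CACGTG, the E-box read by MAX dimers, was present in 5 members (15.2%) and 8.94% of all promoters, and in 18.5% and 10.6% of the CpG-rich ones. TCCCGC was found in 9 of the 14 members open in both libraries and in 7 of the 13 without a region (64.3% and 53.8%). Over all genes these shares were 44.0% and 10.5%, in classes that differ in CpG content. A match is a run of letters and not a measured binding site.

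The next comparison asked how strongly the open promoters differed between the states. A ratio of hTBLC to primed pileup, scaled for relative depth, could be formed at the 16 members whose strongest promoter regions in both libraries overlapped. Its median was 0.824, against 1.02 over 11898 genes, and it lay below 1 at 12 of the 16, against 46.9% of all genes. At least 1.5-fold lower in hTBLC were 4 members (NANOS2, SPO11, STRA8 and TDRD7), against 11.1% of all genes, and at least 1.5-fold higher was 1 (RNF17), against 9.40%. The exact binomial interval lay below 1 at 5 members, those 4 and TDRD1, against 13.7% of all genes, and above 1 at 0, against 17.6%. Without scaling for depth the intervals of TDRD1 and TDRD7 included 1 and that of REC8 lay above it. Weak promoters of all genes had lower ratios as well: with a mean pileup under 40 in the 2 libraries, the median was 0.883 and 27.0% were at least 1.5-fold lower. The 7 members of that strength had a median of 0.715, and 3 were at least 1.5-fold lower. At a mean pileup of 40 to 80 the median was 0.822 in 5 members, against 0.961 of all genes. At 80 or more it was 1.10 in 4 members, against 1.07, and 0 of these 4 were past 1.5-fold. The lower median of the members was thus not seen among their strongest promoters. The part of promoter strength in the members' ratios was not tested.

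**Figure D3:**
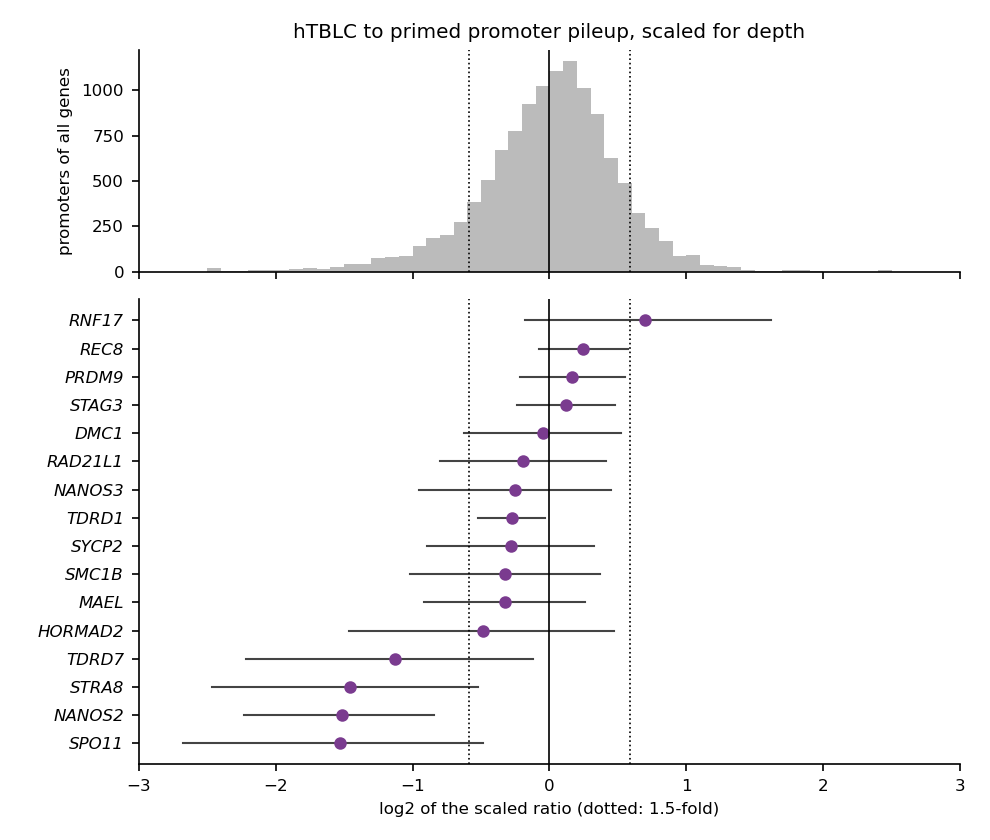
Top, log2 of the scaled hTBLC to primed pileup ratio at the promoters of 11898 genes, with values beyond 2.5 in the last bins. Bottom, the same ratio for 16 members with exact binomial 95% intervals, where the intervals of SPO11, NANOS2, STRA8, TDRD7 and TDRD1 lie below 0.

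Among the RNA-binding germ cell factors, NANOS2, a translational repressor of male germ cells, had a promoter region in both libraries and was lower in hTBLC. Its pileup was 68 (52.8–86.2) in primed and 26 (17.0–38.1) in hTBLC, a scaled ratio of 0.349 (0.213–0.556). The summits lay 700 and 703 bp after the start, inside the short gene, at chr19:45913856-45914262 in primed. With a window of 500 bp the edge of the hTBLC region still lay inside and that of the primed region did not, so NANOS2 was then counted as open in hTBLC alone. NANOS3, which protects primordial germ cells, had pileups of 38 (26.9–52.2) and 35 (24.4–48.7), a ratio of 0.841 (0.516–1.37) that could not be separated from 1 at this depth. A second region of NANOS3, with a pileup of 21 in hTBLC alone, reached within 1 kb of another listed start, with its summit 1085 bp before it. DDX4, the germ cell RNA helicase also called VASA, had a weak region in primed alone, 299 bp before its outermost start, with a pileup of 12 (6.20–21.0) and a −log10 q of 5.35.

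In the piRNA pathway, 4 of 13 members with a listed start had a promoter region in both libraries (30.8%, against 80.4% of all genes). Another 6 had none (46.2%, against 14.7%), 2 were open in primed alone (15.4%, against 2.77%) and 1 in hTBLC alone (7.69%, against 2.12%). TDRD1, a Tudor protein of germ granules, had the highest promoter pileup of the set, 294 (261–330) in primed and 266 (235–300) in hTBLC, a ratio of 0.826 (0.697–0.979). Without scaling for depth it was 0.905 (0.764–1.07). This region lay 561 bp before the outermost start of TDRD1, within 1 kb of a start of CCDC186, so it cannot be given to TDRD1 alone. At the listed inner starts of TDRD1, weak regions that did not touch each other had pileups of 23 in primed and 15 in hTBLC. MAEL, which acts in piRNA-directed silencing, shared its promoter window with ILDR2 and had pileups of 55 (41.4–71.6) and 48 (35.4–63.6). These belong to its outermost start. The other listed start of MAEL, inside the gene and with a CpG ratio of 0.895, had no region in either library.

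TDRD7, a Tudor protein of germ granules, was lower in hTBLC, with 26 (17.0–38.1) against 13 (6.92–22.2) and a ratio of 0.457 (0.215–0.921), or 0.5 (0.236–1.01) without scaling. RNF17, another Tudor-domain protein, was the only member with a ratio of at least 1.5, with 18 (10.7–28.4) in primed and 32 (21.9–45.2) in hTBLC. Its ratio of 1.62 (0.884–3.07) could not be separated from 1, and it set different summits side by side, 23 bp after the start in primed and 715 bp before it in hTBLC. TDRD5 and TDRD12 had weak regions in primed alone, whose pileups were 15 (8.40–24.7) and 11 (5.49–19.7), and GTSF1, a PIWI cofactor, had one in hTBLC alone with 9 (4.12–17.1). None of these 3 calls passed a −log10 q of 10.

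Both gene ends were examined for PIWIL2, TEX19, TEX15 and PIWIL4, and for TEX14, which was grouped with them. PIWIL2, a PIWI protein, had a region at its lower-coordinate end in primed alone, with a summit 10 bp from the end and a pileup of 31 (21.1–44.0), and at its other end a weak region in both, with 9 and 12. TEX19, which acts in transposon control, had one at its lower-coordinate end in hTBLC alone, with a pileup of 17 (9.90–27.2), while a primed-only region with a pileup of 33 (22.7–46.3) had its summit at -2032 bp from the same end. TEX15, a factor of piRNA-directed silencing, had pileups of 48 and 60 at its higher-coordinate end, a ratio of 1.14 (0.768–1.70). This ratio set different summits side by side, at -756 bp from that end in primed and -1191 bp in hTBLC. TEX14, a protein of the bridges between germ cells, had pileups of 42 and 59 at its higher-coordinate end, within 1 kb of starts of RAD51C and IGBP1C. At its other end a weak region with a pileup of 10 was present in hTBLC alone. PIWIL4 had no region at either end.

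All 4 meiotic cohesin genes had a promoter region in both libraries, against 80.4% of all genes. The scaled ratio of each could not be separated from 1. REC8, the meiotic kleisin, had pileups of 141 (119–166) in primed and 183 (157–212) in hTBLC, a ratio of 1.19 (0.946–1.49), with summits 149 and 186 bp before the start. Without scaling for depth the ratio of REC8 was 1.298 (1.04–1.63), which excluded 1. STAG3, a cohesin subunit whose window it shares with GPC2, had 121 (100–145) and 144 (121–170). RAD21L1, a second meiotic kleisin, had 49 and 47, and SMC1B, which shares its window with RIBC2, had 40 and 35. Of the 5 synaptonemal complex and axis genes with a listed start, SYCP1 and SYCP3 had no promoter region and SYCE1 had a weak one in primed alone, with a pileup of 9 (4.12–17.1). SYCP2, next to a start of FAM217B, had pileups of 50 and 45, and HORMAD2 had 23 and 18. HORMAD1 had its only gene end region at the lower-coordinate end, next to a start of GOLPH3L, with 158 (134–185) and 171 (146–199).

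All 4 members of recombination and meiotic entry with a listed start were open in both libraries, against 80.4% of all genes. SPO11, the enzyme that makes meiotic DNA breaks, was lower in hTBLC, with 29 (19.4–41.6) in primed against 11 (5.49–19.7) and a ratio of 0.346 (0.156–0.714). STRA8, the factor that starts meiosis, had 35 (24.4–48.7) against 14 (7.65–23.5), a ratio of 0.365 (0.182–0.696). That region lay between 2 listed starts, with its primed summit 998 bp after the outer and 925 bp before the inner one. At the outer start itself STRA8 had pileups of 10 in primed and 12 in hTBLC, and with a window of 500 bp its ratio turned to 1.10. DMC1, the meiotic recombinase, had 52 and 55, a ratio of 0.966 (0.649–1.44), and PRDM9, the histone methyltransferase that places meiotic breaks, had 105 (85.9–127) and 129 (108–153), a ratio of 1.12 (0.860–1.47). MEIOB, a single-strand DNA binding protein of meiosis, was lower in hTBLC at its higher-coordinate end, with 31 (21.1–44.0) against 9 (4.12–17.1) and a ratio of 0.265 (0.111–0.571). At its lower-coordinate end MEIOB was open in hTBLC alone, and the pileup there was 11 (5.49–19.7).

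The testis genes PGK2, TMPRSS12 and SPEM1, whose difference was known beforehand, are described next. PGK2, the testis phosphoglycerate kinase, had a primed region at chr6:49787223-49787584 with its summit 128 bp before the start, a pileup of 50 (37.1–65.9) and a fold enrichment of 17.2, and no hTBLC region. An hTBLC-only region of equal pileup, 50, lay 15289 bp before the same start, and a region 9739 bp before it was shared, with pileups of 57 and 45. TMPRSS12, a testis serine protease, had a primed region at its lower-coordinate end with a pileup of 51 (38.0–67.1), a further primed-only region with a pileup of 25 farther out, and no hTBLC region within 20 kb. SPEM1, a factor of late sperm maturation, had an hTBLC region at chr17:7419780-7420296 with its summit 292 bp before the start, a pileup of 57 (43.2–73.9) and a fold enrichment of 12.1. The nearest primed region at SPEM1 had a pileup of 7 and lay 1346 bp before the start. TEX101, a surface protein of germ cells, was open in hTBLC alone, weakly, with a pileup of 13 (6.92–22.2).

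**Figure D4:**
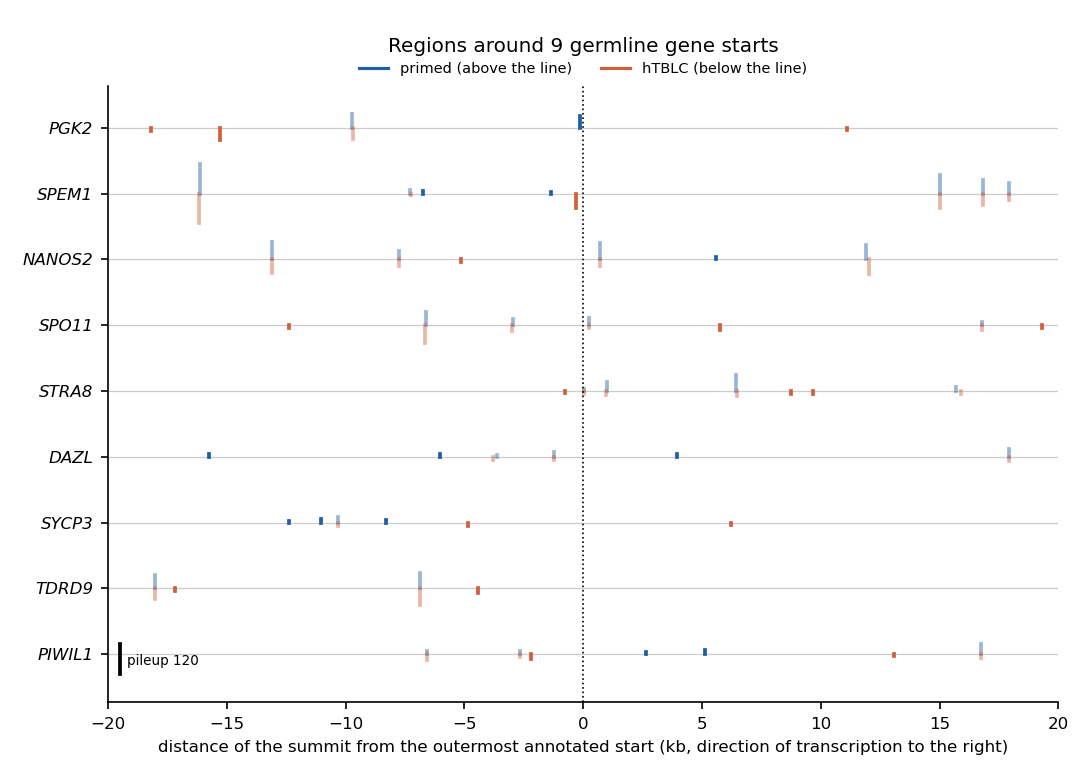
Regions within 20 kb of the outermost annotated start of 9 members, by distance of the summit (kb), with primed above and hTBLC below each line, height in proportion to the pileup up to 120 and pale bars for shared regions. PGK2 has a primed bar and SPEM1 an hTBLC bar at the start, and DAZL, SYCP3, TDRD9 and PIWIL1 have none within 1 kb.

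The surroundings of the genes were compared next, over all regions with the summit inside a member or within 20 kb of it. The 41 members held 294 primed and 277 hTBLC regions, of which 104 were primed-only (35.4%, against 35.3% near all protein-coding genes) and 89 hTBLC-only (32.1%, against 32.5%). Of the 193 regions found in 1 library, 46.1% (38.9–53.4) were hTBLC-only, against 47.1% near all genes. The totals around the members were near those of all genes. More primed-only than hTBLC-only regions were found at 23 members (56.1%), against 47.1% of all genes, and more hTBLC-only regions at 11 (26.8%), against 31.6%. These counts include PGK2, TMPRSS12 and SPEM1, whose difference was known beforehand. Without them, 38 members held 99 primed-only and 84 hTBLC-only regions. More primed-only regions were then found at 21 members (55.3%) and more hTBLC-only regions at 10 (26.3%). PIWIL2 had the largest excess of primed-only regions, 7 against 2, and TEX14 had 7 against 3. The strongest of these at PIWIL2, with a pileup of 34 (23.5–47.5), lay inside the gene 30268 bp from its lower-coordinate end. DAZL had 3 primed-only and 0 hTBLC-only regions, each primed one with a pileup of 12 or 13. In the other direction PGK2, SPO11, PIWIL4 and TEX15 had 4 hTBLC-only regions against 1 primed-only.

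The strongest hTBLC-only region of the whole set lay beyond the 3′ end of SYCP3, 25999 bp after its start, at chr12:101713037-101713648, with a pileup of 75 (59.0–94.0) and a fold enrichment of 18.1. SYCP3 itself had no region at its start. SYCP1 had an hTBLC-only region inside the gene, 20523 bp from the nearest listed start, with a pileup of 28 (18.6–40.5). TDRD7 had a primed-only region inside the gene, 67877 bp from its start, with a pileup of 30 (20.2–42.8). FKBP6 held 7 library-only regions of each library, the strongest of them primed-only with a pileup of 41 (29.4–55.6), and REC8 held none.

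**Figure D5:**
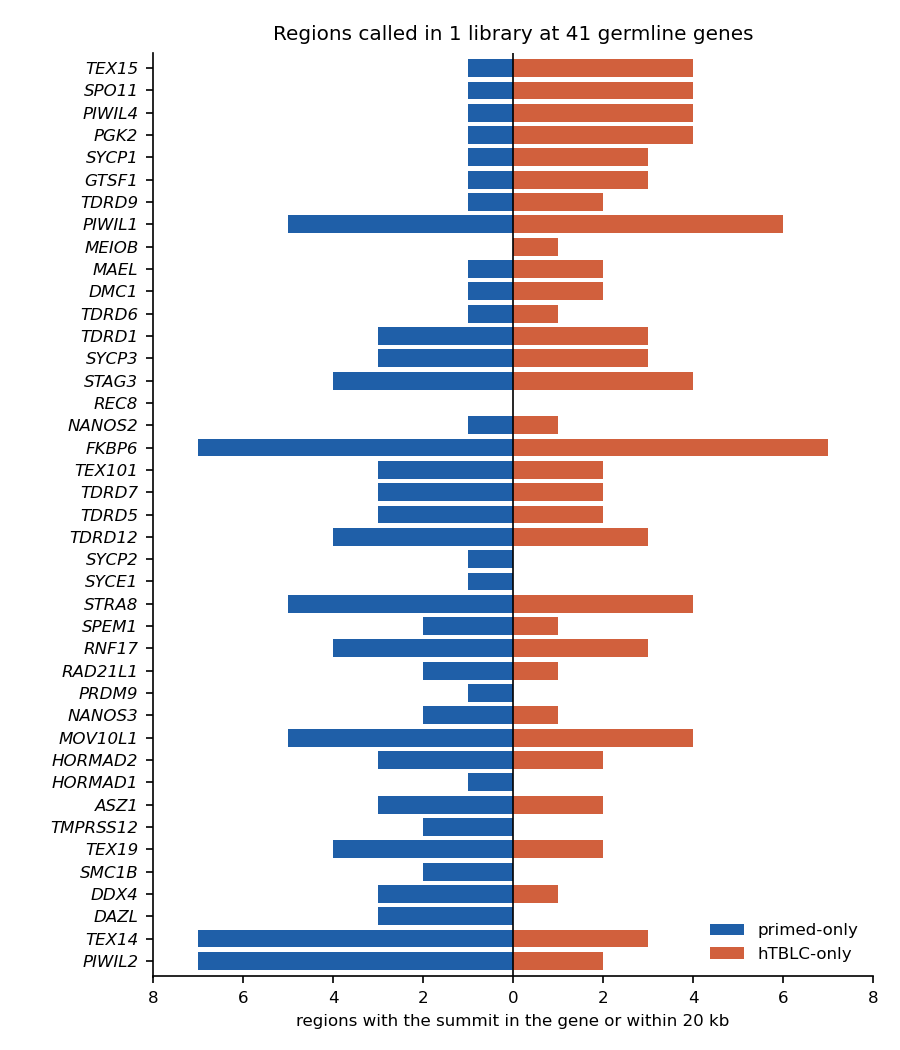
Number of primed-only (left, blue) and hTBLC-only (right, orange) regions with the summit in each of 41 members or within 20 kb, ordered by the difference. PIWIL2, with 7 against 2, is at the bottom, and REC8 has no library-only region.

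Other genes of the same pathways were taken from lists by function. Of 29 further meiosis genes with a listed start, 19 had a promoter region in both libraries (65.5%, against 80.4% of all genes), 6 had none (20.7%, against 14.7%), 4 were open in primed alone (13.8%, against 2.77%) and 0 in hTBLC alone (against 2.12%). Those 4 were TERB1, which tethers telomeres in meiosis, with a pileup of 20, and SHOC1, IHO1 and MAJIN, with 10, 9 and 7. MEIOC, which acts in meiotic entry, was lower in hTBLC with 51 against 21 (ratio 0.376, 0.215 to 0.636), and YTHDC2, its RNA helicase partner, was higher with 136 against 273 (1.83, 1.49 to 2.27). Of the 17 with a ratio, 3 were at least 1.5-fold lower, against 11.1% of all genes. They were MLH3 (0.632, 0.402 to 0.986), RNF212 (0.457, 0.169 to 1.13) and MEIOC. Another 2 were at least 1.5-fold higher, against 9.40% of all genes, MEI4 (1.503, 1.21 to 1.87) and YTHDC2. Of 10 further piRNA genes, 8 were open in both libraries (80%, near the 80.4% of all genes). The other 2, GPAT2 and MORC1, were open in neither (20%, against 14.7%). SPOCD1, a factor of piRNA-directed DNA methylation, had 79 against 44 (0.509, 0.344 to 0.745), and HENMT1, the piRNA methyltransferase, had 36 against 66 (1.67, 1.10 to 2.59). Of 7 ratios these were the 1 lower and 1 higher past 1.5-fold, against 11.1% and 9.40% of all genes.

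Of 20 late spermatid and sperm genes, 10 had no promoter region (50%, against 14.7% of all genes) and 5 had one in both libraries (25%, against 80.4%). A region in primed alone was found at 4, SPACA1, TSSK2, ZPBP and CRISP2 (20%, against 2.77%), and in hTBLC alone at TSSK1B (5%, against 2.12%). The strongest of these was at SPACA1, an acrosome protein, with a pileup of 28. Of 5 ratios, 1 was at least 1.5-fold lower, that of LDHC (0.658, 0.338 to 1.25), against 11.1% of all genes. Of 10 germ cell specification genes, 9 were open in both (90%, against 80.4% of all genes). DPPA3 was open in hTBLC alone (10%, against 2.12%), with a pileup of 11. Among them TFCP2L1 had 63 against 31 (0.449, 0.283 to 0.701) and NANOG 35 against 21 (0.548, 0.303 to 0.968). DND1 was the only other of 6 with a ratio past 1.5-fold (0.502, 0.217 to 1.10). These 3 were lower in hTBLC, against 11.1% of all genes, and 0 were higher, against 9.40%.

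A list of regulators of germline genes, mostly repressors but also holding TET1, TET2, TET3 and SCML2, was mostly open in both states. Of its 24 genes with a listed start, 22 were open in both (91.7%, against 80.4% of all genes). RING1 was open in primed alone (4.17%, against 2.77%) with a pileup of 46, and ZFP42 in neither (against 14.7%). Their median ratio was 0.989. RYBP, a Polycomb subunit, had 61 against 128 (1.92, 1.40 to 2.64). UHRF1, which guides maintenance DNA methylation, had 28 against 52 (1.70, 1.05 to 2.79), and MAX had 126 against 208 (1.51, 1.20 to 1.90). These 3 of 22 ratios were at least 1.5-fold higher, against 9.40% of all genes, and 0 were lower, against 11.1%. Among the somatic paralogs of members, 1 of 10 ratios was at least 1.5-fold higher, that of DDX3X (2.07, 1.52 to 2.84), against 9.40% of all genes. All 10 with a listed start had a promoter region in both libraries, against 80.4% of all genes, with a median ratio of 1.13. So did all 12 housekeeping genes, with a median of 1.15. Of these 12, EEF1A1 (1.71, 1.41 to 2.07) and GUSB (1.58, 1.14 to 2.21) were at least 1.5-fold higher, against 9.40% of all genes.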

How the data were processed

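Peaks of 1 ATAC-seq library per state were deposited by the authors as separate lists. MACS2, Picard, Bowtie2 and hg38 are named, per the submitters' processing notes, without version or setting. How reads were shifted or duplicates treated, and the calling threshold, is not given in the sources used here. The deposited fold ratio compares the summit with the local background of its library. The deposited −log10 p and −log10 q filtered and ranked peaks, and the deposited score was not used. Whole pileups were solved from fold and p (Poisson upper tail, tolerance 0.001 in −log10 p) for 99.999% of primed and 99.998% of hTBLC peaks, with a step tested on simulated data. Merging of peaks into regions used chromosomes 1 to 22 and X, and regions overlapping by at least 1 bp were shared. Starts came from a RefSeq promoter table of GRCh38.p14, for 15812 of 19974 protein-coding genes. Exons and introns were not analysed here. The members and lists were chosen with earlier results of these data known. Genes named with values were those open in 1 library, past 1.5-fold, strongest, or with the largest excess nearby. The regions beyond SYCP3 and inside SYCP1 and TDRD7 were chosen after their values were seen. Alternatives were stricter thresholds, other windows, distances, overlaps and scalings. CpG classes, other choices of start, leaving out shared windows and leaving out PGK2 and SPEM1 were added after the data were seen. Python 3.11.15, scipy 1.17.1 and pandas 2.3.3 were used.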

Additional observations from a re-analysis of the deposited data

How the results depend on the processing

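Each state had 1 library without known read number, so depth is known only through the background, and weak calls depend on the threshold. Members with no promoter region numbered 15 with −log10 q of 10 or more (21.4% of all genes), 20 with the top 50000 regions of each list (30.2% of all genes) and 5 with a window of 2500 bp. Members open in both numbered 8 (60.9% of all genes), and in hTBLC alone 1 (5.21% of all genes), with the top 50000 regions. With 2500 bp, 5 were open in hTBLC alone and 5 in primed alone, and shares of all genes are not given for that window. CpG-rich members without a region numbered 19 of 27 with the top 50000 regions, where 15.6% of all CpG-rich promoters lacked one. They numbered 16 of 27 with −log10 q of at least 10 (6.96% of all) and 13 of 27 with at least 5 (4.38%). With windows of 500 and 2500 bp they numbered 14 of 27 (3.94%) and 9 of 27 (2.2%). Without shared windows they were 11 of 21 (3.40%), and at the listed start nearest the 5′ end 10 of 23 (2.97%). With −log10 q of 10 or more, 1 member was at least 1.5-fold lower and 0 higher, and with the top 50000 regions 0 and 0, since fewer regions remained. Shares of all genes past 1.5-fold are not given for these settings. The ratio of STRA8 turned to 1.10 with a window of 500 bp, which holds another region, and HORMAD2 had no region at its outermost start. NANOS2 had no ratio with that window, where it was open in hTBLC alone. The ratios of SPO11, TDRD7 and RNF17 kept their direction with that window, and these, NANOS2 and STRA8 did so under the other scalings. The median ratio ranged from 0.806 to 0.921. Nearby hTBLC-only, primed-only and shared primed regions numbered 30, 39 and 90 when −log10 q was 10 or more, 17, 26 and 54 with the top 50000 regions, 56, 68 and 113 within 5 kb and 176, 195 and 371 within 50 kb. With −log10 q of 5 or more, hTBLC-only regions numbered 42. With −log10 p of at least 2.83 in both lists, primed-only regions numbered 100 and the promoter class counts of the members were unchanged. No paired analysis was possible because each group has 1 library.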
